A study of Saccharomyces cerevisiae with 8 samples.

Results

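The transcript levels of wild-type budding yeast cells that overproduced the centromeric histone Cse4 during growth in galactose are described here, row by row, from the highest to those without a read. The members are the 2 wild-type (WT) libraries, of 8 libraries in the series, and all 7126 rows of the deposited table in them. The other 6 libraries came from psh1, cac2 and psh1 cac2 mutants and are not used. Both WT cultures were of strain GH69. Per the labels' protocols they were grown in duplicate overnight in raffinose medium, diluted to an OD600 of 0.1 and kept at 30 °C for 2 h. Galactose was then added to 4% to switch on Cse4 overproduction, and the cells were collected after 10 h. Ribosomal RNA was depleted from 1000 ng of total RNA before strand-specific libraries were made. The construct that made Cse4 is not described in the labels. No library without induction, or from another carbon source, is analysed here, so the values are levels in 1 condition, with no test between conditions.

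Values are RPKM, reads per kilobase of row scaled to library size. The files hold no read counts, but 99.802% of the WT values of rows with a reference length were whole multiples of 1 read within 0.01 reads, so reads could be recovered. The rows held 30767522 reads in replicate 1 and 33101818 in replicate 2. In a row of 1 kb, 3 reads corresponded to 0.0958 RPKM in replicate 1 and 0.0875 in replicate 2, and this is the limit below which a level of 0 cannot be told from a low one, for counting error only. Where 2 values are joined by "and", they are those of replicates 1 and 2 in that order. The top 10% stands for the 713 rows with the highest mean of both libraries, the last of which was at 166 RPKM.

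As background, a yeast cell in galactose takes the sugar up through the permease Gal2 and converts it in the Leloir pathway to a phosphorylated glucose, which then enters glycolysis. The genes of that pathway are switched on by the activator Gal4, which is held inactive by Gal80 until the sensor Gal3 binds galactose. RNA depleted of ribosomal RNA but not selected for poly(A) tails also contains the stable noncoding RNAs made by RNA polymerases II and III. Their levels stand in the same table as those of messenger RNAs.

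The labels were checked first against the genes they concern. CSE4, the gene of the overproduced histone, was the highest protein-coding row, at 16625 and 14586 RPKM (15605 ± 1442, SD, n = 2). Its neighbours on chromosome XI, LPX2 and ELM1, were at 22.7 and 27.2 RPKM and at 18.7 and 18.9 RPKM. CSE4 was 576 times and 504 times the median row of the same library. It was 18.2 and 16.0 times the summed level of HHT1 and HHT2, the pair of genes for the normal histone H3, which together stood at 916 and 914 RPKM. HIS3, a histidine synthesis enzyme often used as a selectable marker, was also far above its surroundings, at 5917 and 4474 RPKM. Its neighbours MRM1 and DED1 were at 49.9 and 46.9 RPKM and at 277 and 269 RPKM. PSH1, the ubiquitin ligase of Cse4, was at a mean of 27.5 RPKM, and CAC2, a subunit of the chromatin assembly factor CAF-1, was at 19.2 RPKM, both below the median row. In bulk RNA such as this, fewer cells with a transcript and less of it per cell cannot be told apart.

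The highest row reached 56596 RPKM, and most rows lay in a narrow middle band. The median row was at 28.9 RPKM in each library. The lower and upper quartiles of the mean were 11.9 and 62.6 RPKM, and 4338 of the 7126 rows lay between 10 and 100 RPKM. Above this band, 1145 rows reached 100 RPKM and 73 reached 1000 RPKM. Below it, 778 rows, 10.9%, had a mean under 1 RPKM, and 131 rows, 1.84%, had no read in either library. The 10 highest rows held 17.9% and 17.4% of the summed RPKM, and the 100 highest held 39.1% and 39.0%. The 211 highest rows of replicate 1 and the 214 highest of replicate 2 held as much as all the others together.

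**Figure D1:**
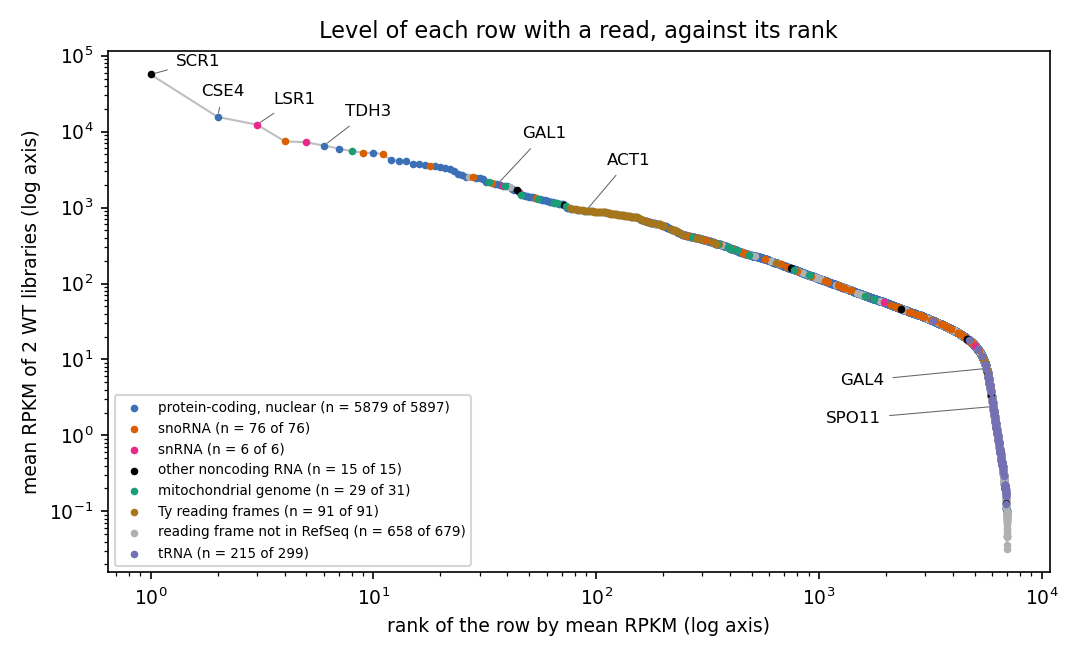
Mean RPKM of the 2 WT libraries (log axis) against the rank of each row (log axis), for rows with at least 1 read, with row classes in colours. SCR1 lies alone at the top at 56596 RPKM, and the curve drops steeply after the rows at about 10 RPKM, where tRNA rows and reading frames outside RefSeq gather.

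The rows fall into classes by the RefSeq annotation of the R64 assembly. The 5897 nuclear protein-coding rows, 82.8% of the table, had a median of 33.5 RPKM and held 69.7% and 70.5% of the summed RPKM. A further 679 rows were reading frames with no entry in RefSeq. Their median was 0.992 RPKM, and 341 of them, 50.2%, were under 1 RPKM, against 178, 3.02%, of the protein-coding rows. Of the 568 protein-coding rows whose product is annotated as uncharacterized, 120 were under 1 RPKM and 16 lay in the top 10%. The highest of these, YGL088W, was at 2550 and 2205 RPKM. It overlaps the snoRNA gene SNR10 on the same strand, so reads of SNR10, itself at 3816 and 3298 RPKM, and of the reading frame cannot be told apart. YCR024C-B, at 2076 and 2048 RPKM, lies 80 bases from PMP1 on the same strand, and PMP1, a small regulator of the plasma membrane proton pump, was at 2412 and 2438 RPKM.

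Noncoding RNAs took the first place and several of the next. SCR1, the RNA of the signal recognition particle that docks ribosomes at the endoplasmic reticulum, was the highest row of all, at 56830 and 56361 RPKM, and alone held 7.77% and 7.82% of the summed RPKM. LSR1, the U2 RNA of the spliceosome, followed CSE4 at 12782 and 11944 RPKM. SNR17A, a copy of the U3 RNA that guides the first cuts of ribosomal RNA, was at 8101 and 6844 RPKM. SNR19, the U1 RNA, was at 7386 and 7081 RPKM, close to U3. RPR1 and NME1, the RNAs of the nucleases that process tRNA and ribosomal RNA, were at 1806 and 1616 RPKM and at 1133 and 1029 RPKM. The telomerase RNA TLC1 was far lower, at 159 and 159 RPKM.

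Among the 82 spliceosomal and nucleolar RNAs the level followed the length of the RNA. The 14 RNAs of at least 250 nt had a median of 1459 RPKM and all lay in the top 10%. The 27 RNAs of 150 nt to under 250 nt had a median of 257 RPKM. The medians were 36.2 RPKM for the 15 RNAs of 100 nt to under 150 nt and 28.6 RPKM for the 26 shorter ones, and of these 41 only 1 lay in the top 10%. Spearman's rho between length and level was 0.776 over the 82 rows, given as a description, since the rows share the same 2 libraries. How far the recovery of short RNA in the libraries sets this order was not tested. The U4 RNA SNR14 and the U6 RNA SNR6 are partners in 1 particle with the U5 RNA, and their values show the same order. SNR14 was at 60.6 and 53.6 RPKM and SNR6, the shorter, at 10.5 and 19.8 RPKM. The long and short forms of U5, SNR7-L and SNR7-S, had 11267 and 11260 reads in replicate 1. The short form lies within the long one, so the same reads were counted in both rows.

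Transfer RNAs were nearly absent from the libraries. The 299 tRNA rows together held 0.0411% and 0.0395% of the summed RPKM, and 84 of them had no read in either library. Their highest row, tN(GUU)P, reached 30.6 and 33.9 RPKM. Ribosomal RNA left after depletion held 0.353% and 0.0983% of the summed RPKM, and 0.908% and 0.254% of the reads. RDN18-1, the 18S RNA, was at 514 RPKM in replicate 1 and 133 RPKM in replicate 2. Rows such as RDN18-1 lie within rows of their precursor such as RDN37-1, so the shares above count reads more than once. Of the 6 copies of the 5S RNA, 5 had no read in either library.

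Glycolysis was the highest of the described pathways. The 17 listed genes had a median of 2449 RPKM, above 99.6% of rows, and 15 of them lay in the top 10%, where 10.0% of all rows lie by definition. TDH3, the main glyceraldehyde-3-phosphate dehydrogenase, was at 6434 and 6656 RPKM. FBA1, the aldolase, was at 6144 and 5823 RPKM. CDC19, the pyruvate kinase, was at 3707 and 3763 RPKM. The upper steps were lower than these later ones. Phosphofructokinase, whose subunits are PFK1 and PFK2, was at 384 and 366 RPKM and at 374 and 352 RPKM. PGI1, which lies before it in the pathway, was at 746 and 771 RPKM. Among the enzymes that phosphorylate glucose, GLK1 was at 274 and 361 RPKM, HXK2 at 225 and 218 RPKM and HXK1 at 129 and 174 RPKM.

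Isozymes of glycolysis and fermentation differed widely in some pairs and little in others. CDC19 was 100 times the level of its minor isozyme PYK2 in replicate 1 and 92.2 times in replicate 2. PDC1, the main pyruvate decarboxylase, at 4152 and 4125 RPKM, was 126 and 121 times PDC5, which lay at 32.9 and 34.1 RPKM. ENO2 and ENO1, the enolases, were closer, at 3282 and 3272 RPKM and at 2633 and 2882 RPKM. TDH1 and TDH2 changed order between the libraries, at 2303 and 2718 RPKM and at 2472 and 2426 RPKM, so their order was within the spread between cultures. The alcohol dehydrogenase ADH1, which makes ethanol, was at 1367 and 1450 RPKM, and ADH2, which consumes it, at 123 and 131 RPKM. Enzymes of sugar synthesis were low, with PCK1 at 19.8 and 16.2 RPKM and FBP1 at 3.48 and 3.26 RPKM.

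**Figure D2:**
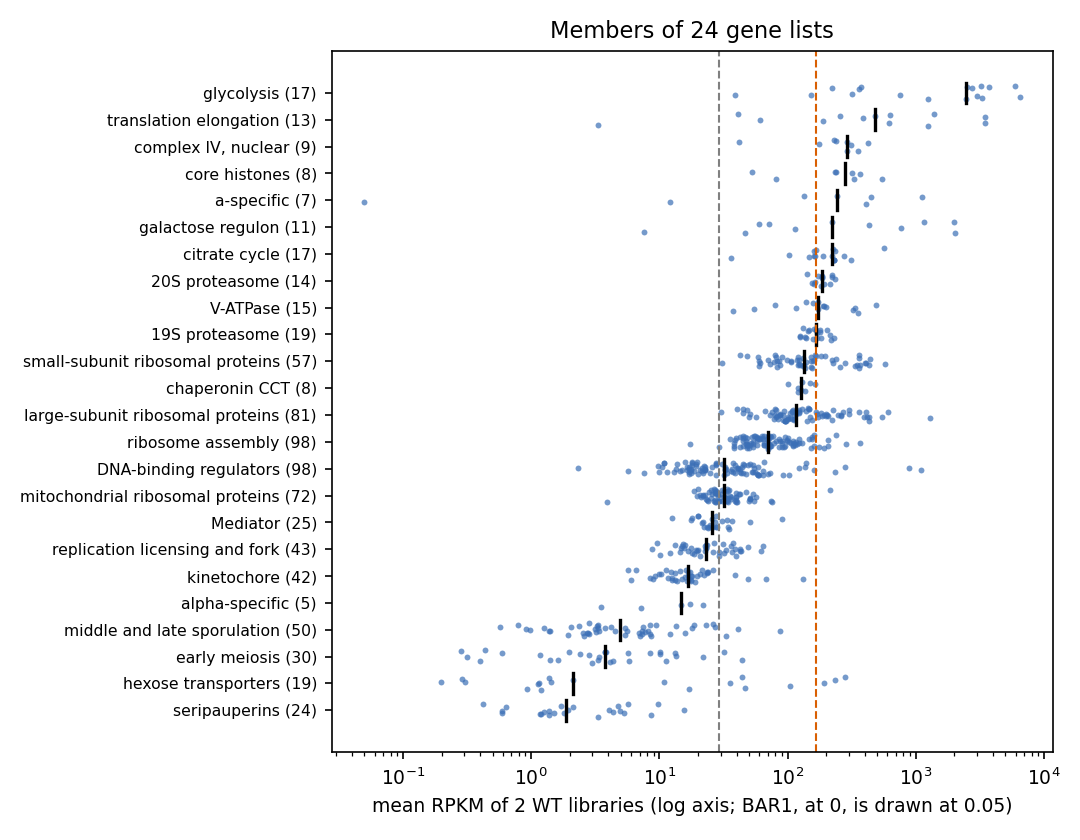
Mean RPKM over the 2 WT libraries (log axis) of every member of 24 gene lists, ordered by list median (black bars), with the number of members in brackets; the grey dashed line is the median row at 28.9 RPKM and the orange one the limit of the top 10% at 166 RPKM. Proteasome and chaperonin members sit close together, while the galactose regulon and the hexose transporters are spread widely.

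The structural genes of the galactose regulon were high and its regulators lower. GAL1, the galactokinase, was at 1921 and 2125 RPKM. GAL10, which makes the epimerase, was at 1903 and 2083 RPKM, and GAL7, the transferase, at 1071 and 1266 RPKM. GAL2, the permease, was at 713 and 832 RPKM. All these structural genes lay in the top 10%, each slightly higher in replicate 2. GAL80, the inhibitor, was at 212 and 230 RPKM and GAL3, the sensor, at 71.1 and 72.8 RPKM. GAL4, the activator, was at 7.67 and 7.55 RPKM, so that GAL1 was 250 and 281 times its own activator. Over the 11 listed members the median was 221 RPKM, and 6 lay in the top 10%.

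The sequences that Gal4 is known to bind have CGG and CCG separated by any 11 bases, a form that reads the same on both strands. In the 500 bases before the start codon, 9 of the 11 listed genes held this motif at least once, against 175 of 5895 protein-coding genes, 2.97%. Coordinates and letters are from the RefSeq R64 assembly, the build of sacCer3, on the plus strand unless stated. The sites of the structural genes and of GAL80 and GAL3 are shown because these genes differ widely in level while each holds the same fixed letters, which are in capitals.
GAL1, chrII:278568-278584: CGGattagaagccgCCG
GAL1, chrII:278587-278603: CGGgcgacagccctCCG
GAL1, chrII:278605-278621: CGGaagactctcctCCG
GAL2, chrXII:289796-289812: CGGcggtctttcgtCCG
GAL7, chrII:275703-275719 (minus strand): CGGacaactgttgaCCG
GAL80, chrXIII:171422-171438: CGGcgcactctcgcCCG
GAL3, chrIV:463146-463162: CGGtccactgtgtgCCG
The 3 sites of GAL1 are also those of GAL10, since both genes start from the same intergenic region in opposite directions. They lie close together, as the stretch chrII:278558-278631 shows, with the sites in capitals.
GAL1 and GAL10, plus strand: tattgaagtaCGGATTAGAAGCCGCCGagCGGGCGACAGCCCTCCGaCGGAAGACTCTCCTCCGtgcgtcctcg
GAL2 held 4 matches, some of which overlap, and GAL7, GAL80 and GAL3 held 1 each. ENO2, an enolase that is no member of the regulon, also held a match and was at 3282 and 3272 RPKM. GAL4 itself held 1. A match is a description of the letters, not of binding. The 175 genes with a match had a median of 41.8 RPKM.

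Few of the many hexose transporter genes were high. Of 19 hexose transporters and sensors, 3 lay in the top 10% and 4 were under 1 RPKM, with a list median of 2.12 RPKM. HXT7 and HXT6, nearly identical high-affinity transporters whose reads may be shared, were at 270 and 292 RPKM and at 224 and 242 RPKM. HXT5 was at 163 and 219 RPKM. The low-affinity glucose transporters differed, with HXT1 at 18.2 and 15.7 RPKM and HXT3 at 111 and 97.5 RPKM. HXT17, the lowest, was at 0.188 and 0.206 RPKM. SUC2, the invertase, was at 44.6 and 48.6 RPKM, the highest of 14 listed genes for other sugars, none of which lay in the top 10%.

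The cell surface supplied another group of very high messages. CCW12, a mannoprotein of the cell wall, was at 4139 and 4241 RPKM, and SED1 and CWP2, also wall proteins, were at 3540 and 3904 RPKM and at 3529 and 3636 RPKM. Of 23 listed mannoproteins 10 lay in the top 10%. The others reached down to DAN1, a mannoprotein known from growth without oxygen, at 0.427 and 0.325 RPKM, and TIR1, of the same anaerobic group, at 1.75 and 1.45 RPKM. PMA1, the plasma membrane proton pump, was at 2678 and 2711 RPKM, 12.1 and 11.2 times its paralog PMA2. Flocculins were low, with FLO11 at 0.700 and 0.945 RPKM.

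Stress genes were spread from the top rows to below the median row. HSP12, a small membrane-protecting protein, was at 3988 and 4188 RPKM, the 14th row of the table. SSA1, a cytosolic Hsp70, was at 1112 and 1278 RPKM and the constitutive Hsp90 HSC82 at 876 and 931 RPKM, 2.05 and 1.87 times its paralog HSP82. AHP1, a peroxiredoxin, was at 1577 and 1862 RPKM, and 15 of 28 listed antioxidant genes lay in the top 10%. CTA1, the peroxisomal catalase, was the lowest of these at 8.89 and 10.0 RPKM. HSP26 differed between the cultures, at 587 and 950 RPKM.

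The proteasome and the cytosolic chaperonin had narrow ranges. The 14 genes of the proteasome core lay between 142 RPKM for PRE8 and 236 RPKM for PRE1, with a median of 184 RPKM, and the 19 genes of its regulatory cap between 124 and 232 RPKM. The 8 genes of the cytosolic chaperonin lay between CCT7 at 101 RPKM and CCT2 at 164 RPKM. The highest member of the core was only 1.66 times the lowest, and in the chaperonin the ratio was 1.63. The vacuolar proton pump was less even, from VMA3 at 499 and 478 RPKM, which encodes a subunit used in several copies, to VMA9 at 56.3 and 52.6 RPKM and to STV1, an isoform of the VPH1 subunit at other membranes, at 36.0 and 39.4 RPKM. Part of this range can come from row lengths that include introns. The median of the pump list was 173 RPKM by row span and 188 by exon length.

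Translation genes were high, in an order that depends on their role. TEF1 and TEF2 encode the same elongation factor, and reads from their like sequences cannot be told apart. TEF1 was at 3542 and 3408 RPKM and TEF2 at 3534 and 3411 RPKM. YEF3, the fungal elongation factor 3, was at 1513 and 1277 RPKM, and its paralog HEF3 at 38.6 and 43.8 RPKM. HYP2, which encodes eIF5A, was 333 and 428 times its paralog ANB1, known from growth without oxygen. The 28 listed initiation factors had a median of 131 RPKM and the 18 cytoplasmic tRNA synthetases one of 174 RPKM. The 98 listed ribosome assembly genes had a median of 70.9 RPKM, with NSR1 highest at 400 and 331 RPKM.

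The level of ribosomal protein genes depends on how their length is counted. Of 282 rows with an intron in the reference, 99.3% of values above 0 were whole reads at the full span and 3.55% at the exon length, so the deposited RPKM divide by the span with its introns. The 89 ribosomal protein genes with an intron have a median span of 851 nt and a median exon length of 417 nt. Their median was 104 RPKM as deposited and 203 per kilobase of exon. The 48 genes without one had a median of 266 RPKM. By the deposited values 45 of the 137 ribosomal protein genes lay in the top 10%, 6 of them with an intron. Per kilobase of exon 101 genes reached the same 166 RPKM limit, 62 of them with an intron. That value keeps all reads of the span, so any reads from introns raise it. The snoRNA SNR44, which lies within RPS22B, had 582 reads in replicate 1, against 1630 for RPS22B. A further 182 protein-coding rows outside the ribosome have an intron, and their deposited values are reduced too, by a factor that depends on the intron. ACT1, the actin gene, has a span of 1437 nt and exons of 1128 nt.

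Summed over gene copies, ribosomal proteins became more alike. The quartiles of the 137 single genes differed by a ratio of 2.34 as deposited and 1.77 per kilobase of exon. Over 78 proteins, of which 59 have 2 gene copies and 19 have 1, the ratio was 2.24 as deposited and 1.38 for summed copies per kilobase of exon. The lowest of these sums was RPL9, at 208 and 180, and the highest was RPL10, at 1298 and 1272. RPL10, which encodes a late-joining protein of the large subunit, has 1 gene copy. RPS30 came next, at 1057 and 940, followed by RPP2, at 790 and 657.

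By the deposited values, which divide by spans with introns, copies within pairs differed by a median ratio of 1.39. In 17 of 59 pairs the deposited ratio was at least 2. The count depends on the length used. Per kilobase of exon the ratio of RPS22 was 1.15, not 2.57, and that of RPS7 was 2.11, not 1.99. RPL15A, at 460 and 408 RPKM, stood 9.67 times above RPL15B, at 44.2 and 45.6 RPKM, the widest ratio. RPS28A stood 7.48 times above RPS28B. In RPS9 the second copy was the higher, with RPS9A at 33.7 and 28.2 RPKM and RPS9B at 152 and 124 RPKM. RPS16A and RPS16B were closest as deposited, at 90.7 and 73.1 RPKM and at 91.6 and 73.7 RPKM. Per kilobase of exon their ratio was 1.12, and that of RPS6 was 1.0035. The order of the copies did not reverse between the libraries in 57 of 59 pairs, and the A copy was higher by the mean in 32. The 57 include RPS1, whose copies were both at 310.5 RPKM in replicate 2. Copies with near-identical sequence share reads, which was not corrected here.

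**Figure D3:**
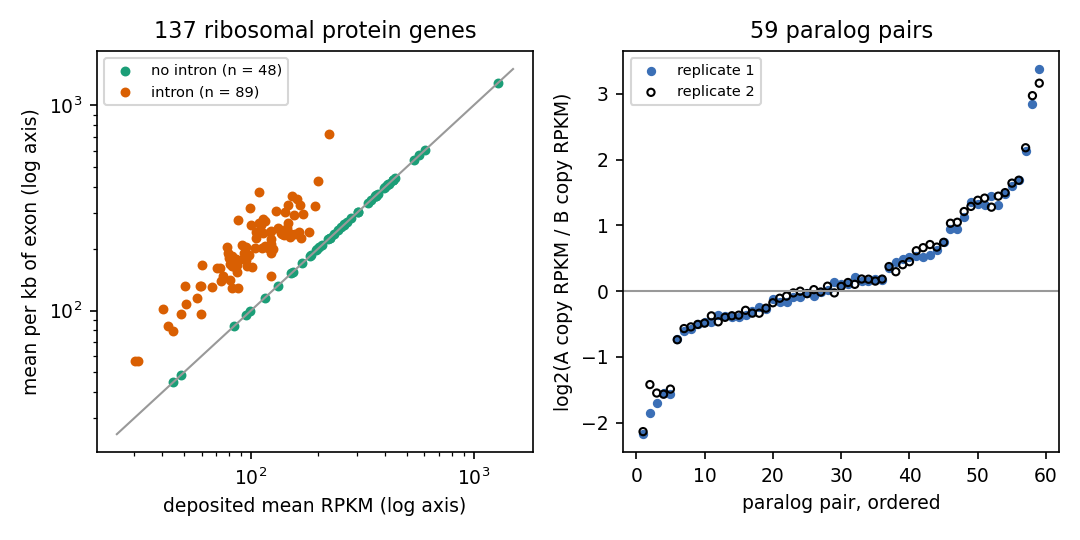
Left, the deposited mean RPKM of 137 ribosomal protein genes against the value per kilobase of exon (both log axes), with the line of equality; the 48 genes without an intron lie on the line and the 89 with one lie above it. Right, log2 of the A copy over the B copy by deposited RPKM for 59 pairs in each library, ordered by the mean ratio, with the replicates nearly on top of each other.

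Respiratory genes were high as well. The nuclear subunits of cytochrome oxidase had a median of 289 RPKM, and 8 of 9 lay in the top 10%, the exception being COX5B, the isoform known from low oxygen, at 40.3 and 43.7 RPKM. The aerobic isoform COX5A was at 431 and 415 RPKM. The ATP synthase genes had a median of 246 RPKM, with ATP2, the catalytic subunit, at 631 and 661 RPKM. The 17 citrate cycle genes had a median of 220 RPKM, led by the aconitase ACO1 at 558 and 572 RPKM. Mitochondrial ribosomal proteins were lower, with a median of 31.7 RPKM over 72 genes, close to that of all rows.

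The mitochondrial genome gave 2.55% and 2.80% of the summed RPKM. These shares count reads of frames that lie within the COX1 and COB rows more than once. OLI1, subunit 9 of ATP synthase, was highest at 5421 and 5605 RPKM. COX2 and COX3, subunits of cytochrome oxidase, were at 2091 and 2235 RPKM and at 1870 and 1990 RPKM. COB, the cytochrome b gene, was at 315 and 348 RPKM over a row of 7108 nt that includes its introns. The frames BI2, BI3 and BI4, at means of 395, 288 and 302 RPKM, lie within this row and share its reads. How the introns change the value of COB was not tested, so it cannot be ranked directly against rows without introns. ATP6 was at 218 and 262 RPKM, while ATP8, cotranscribed with it in yeast, was at 0.217 and 0.198 RPKM, and VAR1 at 4.00 and 3.78 RPKM. ATP8 is a very short row, and its values lie under the limit of 3 reads in both libraries. The intron-encoded frames AI1 to AI5_ALPHA, at means of 1055 to 1462 RPKM, lie within the COX1 row and share its reads. COX1 had 345369 reads in replicate 1, and AI5_ALPHA within it had 293810.

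Amino acid synthesis was high too. Of 23 genes for arginine, lysine and histidine, 17 lay in the top 10%, and of 25 for branched-chain and aromatic amino acids, 15. ARG1, argininosuccinate synthetase, was at 1285 and 1124 RPKM and ILV5 at 1168 and 1093 RPKM. GCN4, the activator of these pathways, whose protein is controlled mainly at translation, was the highest of 98 listed DNA-binding regulators, at 1142 and 1073 RPKM. HAC1, the regulator of the unfolded protein response, followed at 857 and 902 RPKM. The regulators as a list had a median of 32.2 RPKM. TRP1, which ends 918 bases before GAL3, was the lowest of the aromatic genes, at 17.4 and 15.9 RPKM, against 265 and 253 RPKM for TRP5.

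Metal genes included 1 of the highest rows. ZRT1, the high-affinity zinc importer, was at 2193 and 2211 RPKM, the 32nd row. ADH4, an alcohol dehydrogenase and its neighbour on chromosome VII, was at 1492 and 1429 RPKM, while FZF1, on the other side, was at 13.9 and 12.7 RPKM. Both ZRT1 and ADH4 are known targets of the zinc-sensing activator Zap1. An element that Zap1 is known to bind, ACCTT and AAGGT separated by any 1 base, reads the same on both strands and was found before 9 of 5895 genes, 0.153%, within 500 bases. ZRT1 holds it and was the only gene of the top 10% that did.
ZRT1, chrVII:20774-20784: ACCTTGAAGGT
No match lies in this window of ADH4. Iron uptake genes were lower. FTR1, the iron permease, was at 34.8 and 37.8 RPKM and its partner FET3, a ferroxidase, at 26.7 and 26.3 RPKM. FRE5, a putative ferric reductase, was the lowest of the metal list at 0.245 and 0.182 RPKM. The copper-binding metallothionein copies CUP1-1 and CUP1-2, identical in coding sequence, were at 801 and 686 RPKM and at 822 and 700 RPKM.

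The core histones were high, while most kinetochore genes were low. The 8 core histone genes had a median of 280 RPKM, with HHT2 at 547 and 551 RPKM. The second loci of H2A and H2B were lower than the first, HTA2 at 51.1 and 55.1 RPKM against 229 and 238 RPKM for HTA1. The 42 kinetochore genes had a median of 16.6 RPKM, under that of all rows. Their members included the centromere protein MIF2 at 18.3 and 17.9 RPKM, NDC80 of the microtubule-binding complex at 19.7 and 19.6 RPKM and the Aurora kinase IPL1 at 5.99 and 6.02 RPKM. SKP1, which also serves in ubiquitin ligases, was the highest at 129 and 135 RPKM. SCM3, the dedicated chaperone of Cse4, was at 16.6 and 16.1 RPKM, against 16625 and 14586 RPKM for CSE4.

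No subunit of the listed RNA polymerases, their initiation factors, Mediator, SAGA or TFIID lay in the top 10%. Mediator had a median of 25.9 RPKM over 25 genes, and SAGA and TFIID one of 32.9 RPKM over 27, both near the median row. The polymerases were higher. Subunits of RNA polymerase I had a median of 76.2 RPKM, of II 70.2 RPKM and of III 42.7 RPKM, and the subunits they share had one of 103 RPKM. The 10 named genes nearest the median row were HDA1, OST5, EAF1, RGD1, IPI1, PFS2, SLU7, COX17, RAD9 and HKR1. They range from a histone deacetylase and a splicing factor to a DNA damage checkpoint protein and a signalling mucin, and span 28.9 to 29.0 RPKM. Of these, IPI1 differed most between the libraries, at 32.8 and 25.1 RPKM.

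Of the 7 listed a-specific genes, 5 were above and 2 below the median row. MFA2 and MFA1, the a-factor genes, were at 1164 and 1088 RPKM and at 462 and 428 RPKM. STE2, the receptor for alpha-factor, was at 421 and 396 RPKM, and STE6, the a-factor exporter, at 139 and 130 RPKM. AGA2, a subunit of the a-agglutinin, was at 251 and 231 RPKM. None of the 5 listed alpha-specific genes reached the median row. The highest was SAG1, the alpha-agglutinin, at 22.4 and 21.8 RPKM, and the a-factor receptor STE3 was at 7.05 and 7.45 RPKM. The a-specific ASG7, at 11.25 and 12.96 RPKM, was lower than SAG1. BAR1, the protease that destroys alpha-factor and an a-specific gene as well, had no read in either library. The mating-type cassettes of the reference annotation gave no single picture. MATALPHA1 had 2 reads and 1 read, whereas MATALPHA2 had 318 and 316 reads and HMLALPHA2, the silent-cassette copy, 285 and 350 reads. MATALPHA2 and HMLALPHA2 are identical in coding sequence, so their reads cannot be told apart. HMRA1 was at 63.8 and 65.0 RPKM and HMRA2 at 22.2 and 22.7 RPKM. No cassette row stands for an a1 or a2 gene at MAT, so reads of such genes could be counted in HMRA1, HMRA2 or other cassette rows. Transcription of the silent cassettes was not tested.

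Meiotic genes were mostly low but seldom without reads. The 30 early genes had a median of 3.75 RPKM and the 50 later sporulation genes one of 4.92 RPKM. SPO11, which makes the meiotic breaks, was at 2.83 and 1.97 RPKM, the recombinase DMC1 at 3.70 and 3.91 RPKM and IME1, the master inducer, at 3.68 and 3.07 RPKM. No listed meiotic gene had 0 reads in both libraries. SPS100, a spore wall gene, was the highest at 91.6 and 84.3 RPKM.

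Only 18 of 5897 protein-coding rows had no read in either library, 0.305%. The symbols among them are SNL1, BAR1, COS12, PDR18 and AIF1, and the other 13 carry systematic names alone. A count of 0 allows up to 0.0543 RPKM for BAR1 in replicate 1 and 0.0239 RPKM for PDR18, by 3 reads. Some of the 18 are neighbours. SNL1, BAR1 and YIL014C-A lie side by side at chrIX:321454-325526, and the genes on both sides had ordinary levels, VID28 at 105 and 107 RPKM and MNT3 at 41.9 and 42.6 RPKM. SNL1 encodes a membrane-bound partner of Hsp70. Near the right end of chromosome XIV, PDR18, a transporter, and YNR071C were at 0, next to BSC5 at 93.3 and 92.2 RPKM. AIF1, YNR075C-A and, near the left end of chromosome VII, COS12, YGL262W and YGL260W were also at 0. Whether these stretches are missing from the strain's genome was not tested.

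**Figure D4:**
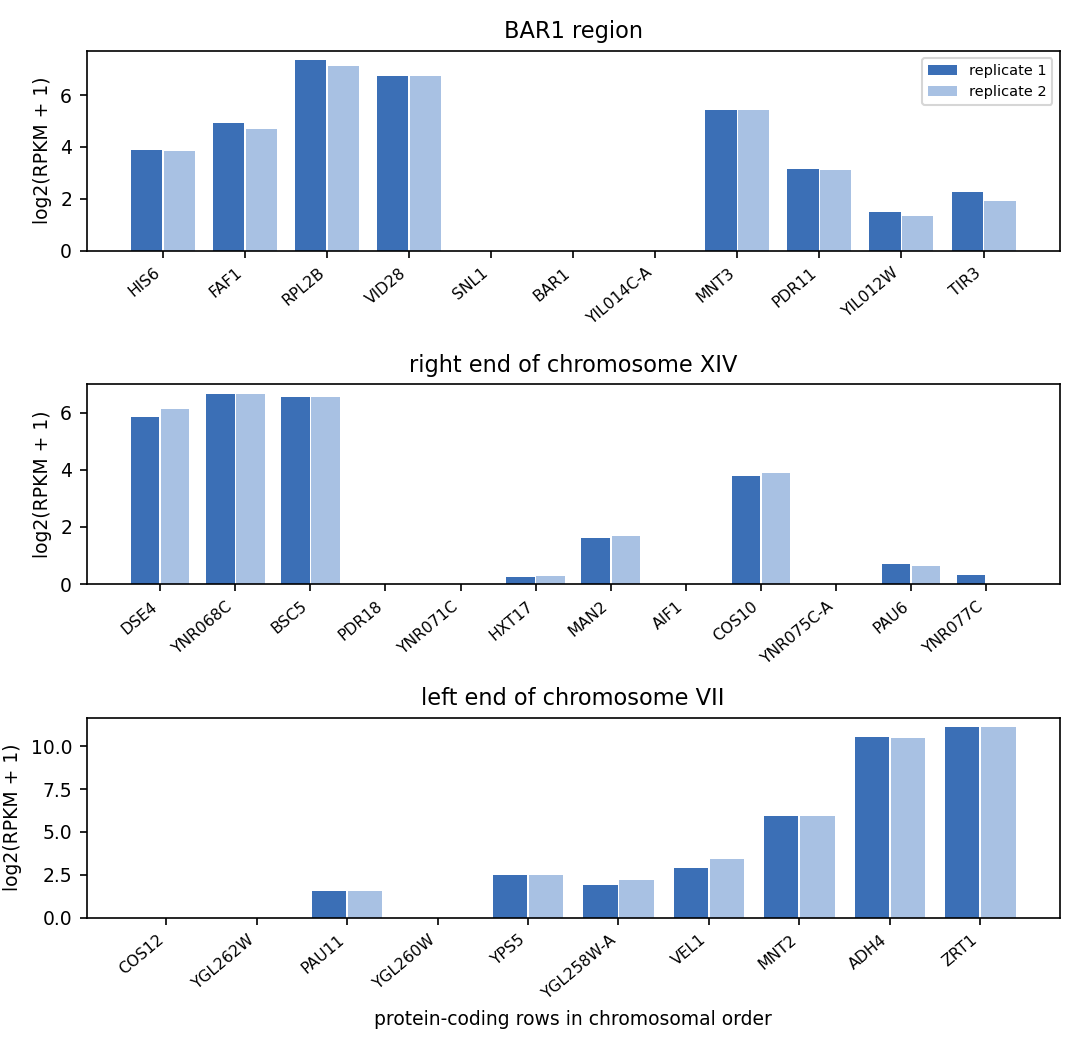
log2(RPKM + 1) of protein-coding rows in chromosomal order in both WT libraries around BAR1, at the right end of chromosome XIV and at the left end of chromosome VII. SNL1, BAR1 and YIL014C-A have no bar, between VID28 at 105 and 107 RPKM and MNT3 at 41.9 and 42.6 RPKM.

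Protein-coding rows near a chromosome end were lower than those farther away. The 122 protein-coding rows within 10 kb of an end had a median of 10.9 RPKM, 20 were under 1 RPKM and none lay in the top 10%. From 10 to 20 kb the median was 15.0 RPKM, from 20 to 50 kb 30.2 RPKM and beyond 100 kb 35.2 RPKM. The share under 1 RPKM went from 16.4% in the first class to 2.53% in the last. The 24 seripauperins, a family found largely but not wholly near the ends, had a median of 1.87 RPKM, and 4 were under 1 RPKM. Other families were higher, with medians of 18.5 RPKM for the COS genes, 21.8 RPKM for the Y' helicases and 115 RPKM for the AAD genes. The whole chromosomes differed little, from a median of 27.6 RPKM on VI to 38.2 RPKM on V. Short rows were more often at either extreme. Of 279 rows under 300 nt, 18.6% were under 1 RPKM and 16.5% lay in the top 10%. Of 861 rows of at least 2400 nt, 0.232% and 4.99% did.

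Retrotransposons of 2 families were abundant. The 61 Ty1 frames had a median of 818 RPKM, from 347 to 977, and the 20 Ty2 frames one of 490 RPKM. Ty3 and Ty4 frames lay between 3.81 and 11.1 RPKM. All 91 Ty rows took 20.2% and 19.4% of the reads, but 41 of them lie within a longer frame whose reads are the same. The 50 outer frames alone took 16.3% and 15.7%. Copies of an element are nearly identical, and how reads that fit several were placed is not given in the sources used here, so the values describe a family, not an element. The 15 groups of genes with identical coding sequence showed how copies were scored. The highest and lowest copy of a group differed by a median ratio of 1.04, as in the ASP3 asparaginase copies, from ASP3-4 at 53.6 and 58.3 RPKM to ASP3-1 at 56.9 and 59.4 RPKM. Some groups were less even. YLR464W was at 14.4 and 15.3 RPKM and its copy YEL076C-A at 8.82 and 9.38 RPKM, and the widest ratio, 3.88, was that of HMLALPHA1 and MATALPHA1, which had few reads.

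Codon choice and promoter type were set beside the levels, as features that the RPKM do not contain. For 18 amino acids the codon used most by ribosomal protein genes was taken as favoured, and its share was computed over 5472 other genes of at least 300 nt. The share was flat at first and then climbed with level. The median was 36.0% in the lowest 548 genes, 37.1% in class 5 of 10 by level, 43.2% in class 9 and 51.1% in the highest. Spearman's rho over the genes was 0.544, as a description. Of 51 genes with at least 70% favoured codons, 48 lay in the top 10%. PDC5, with 74.2%, was at 33.5 RPKM and ANB1, with 67.8%, at 3.33 RPKM. TIR1, with 72.4%, at 1.75 and 1.45 RPKM, was the lone gene of the 51 below the median row. In the other direction, 2 of the 43 genes over 1000 RPKM had less than the median share of 38.2%, HIS3 with 31.6% and YGL088W with 25.2%. CSE4, with 38.9%, was just above that median, and GAL1 had 43.1%.

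The first 90 bases of 3 coding sequences are shown for contrast, with favoured codons in capitals, from the RefSeq R64 assembly.
TDH3, chrVII:883721-883810 (minus strand): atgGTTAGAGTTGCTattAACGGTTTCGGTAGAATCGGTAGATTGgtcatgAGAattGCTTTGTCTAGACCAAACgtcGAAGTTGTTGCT
SPO11, chrVIII:64068-64157 (minus strand): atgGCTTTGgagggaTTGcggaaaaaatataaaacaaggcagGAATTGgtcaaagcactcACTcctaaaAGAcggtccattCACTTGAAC
CSE4, chrXI:346675-346764 (minus strand): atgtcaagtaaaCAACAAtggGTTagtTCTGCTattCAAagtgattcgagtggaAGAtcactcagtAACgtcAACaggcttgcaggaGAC
Of the 30 codons, 24 are favoured in TDH3, at 6545 RPKM. SPO11, at 2.40 RPKM, has 10, and so has CSE4, the highest coding row of these cells.

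TATA octamers gave another shape. The octamers searched were TATAAAAA, TATAAAAG, TATAAATA, TATAAATG, TATATAAA, TATATAAG, TATATATA and TATATATG, on the coding strand in the 200 bases before the start codon, and they can overlap each other. They were present before 1364 of 5895 genes, 23.1%. The share was 43.1% in the highest class by level and 30.5% in the lowest, and between 17.1% and 18.5% in classes 4 to 8. Both ends of the range thus held more matches than its middle.

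**Figure D5:**
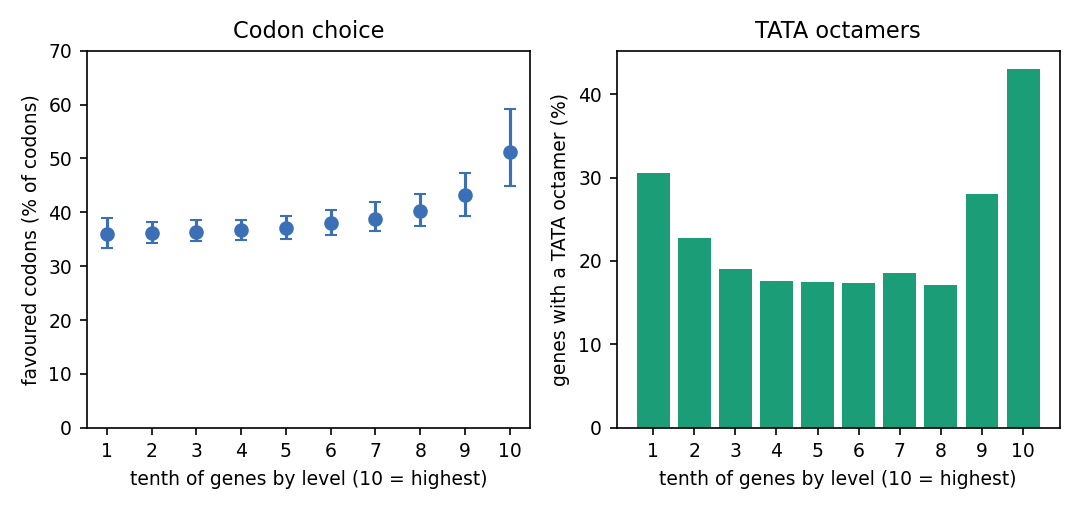
Left, the share of favoured codons (median and quartiles, %) in 10 classes of 547 or 548 genes by mean RPKM, from 36.0% in the lowest to 51.1% in the highest. Right, the share of genes with a TATA octamer within 200 bases before the start codon (%), high at 43.1% in the highest class and 30.5% in the lowest.

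The 2 cultures gave close but distinguishable levels. The ranks of all 7126 rows had a Spearman's rho of 0.995, and 675 of the 713 highest rows were shared. Of 6348 rows with a mean of at least 1 RPKM, 87, 1.37%, differed by over 1.5-fold on the scale of RPKM + 1, and 22 by over 2-fold. The SD of the log2 difference was 0.13 to 0.16 for rows of 20.4 to 58.8 RPKM, where counting alone gives 0.045 to 0.063. In the highest class it was 0.27 against 0.018. A chi-square of the reads came to 46.2 per degree of freedom over 6348 rows, so the libraries are not 1 library deposited in duplicate. Residual ribosomal RNA made the widest differences, with RDN18-2 lower in replicate 2 by a log2 difference of -1.96. In the other direction the widest difference among these rows was that of YOR387C, an uncharacterized gene, at 18.1 and 39.4 RPKM. It was followed by OYE3, an NADPH oxidoreductase, at 136 and 252 RPKM, then the U6 RNA SNR6, HSP30, a membrane heat shock protein, at 54.2 and 94.5 RPKM, and RTC3, at 92.5 and 158 RPKM. PGM2, a phosphoglucomutase, was at 87.8 and 140 RPKM, and GLC3, a glucan branching enzyme, at 36.9 and 58.5 RPKM. RPS31, a ribosomal protein gene, was at 627 and 514 RPKM. The small-subunit list as a whole held 1.51% and 1.29% of the summed RPKM, and the large-subunit list 2.07% and 1.80%.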

How the data were processed

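RNA from 2 WT cultures was depleted of ribosomal RNA and sequenced as strand-specific libraries, per the labels' protocols. Per the submitters' processing notes, bcl2fastq 2.18, TopHat2 2.0.13 and edgeR 3.14.0 were used with sacCer3. No source used here names the read counter, its strand setting, the annotation or how reads that fit several places were treated. The authors deposited RPKM, a normalized unit, in 1 table of 7126 rows and 8 libraries, of which the 2 WT columns are used.

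From these values, reads were recovered as RPKM times row length times library size, with a tolerance of 0.01 reads. Of the rows, 6048 matched the RefSeq annotation by locus tag, 114 by symbol and 964 not at all. For 958 rows the smallest length giving whole reads was taken, so their reads are a minimum. Most of these were unmatched, but some were matched rows whose reads were not whole at the reference span, such as GRX3. A further 20 rows, at 0 in all 8 libraries, had no length. The rows held 30767522 and 33101818 reads, and the library sizes behind the RPKM were 31327785 and 34289785. Intervals and limits cover counting error only. Levels and ranks are means of both libraries, and the libraries were compared as log2(RPKM + 1) in rows with a mean of at least 1 RPKM. The recovery was tested on simulated data. No groups are compared, so no test between conditions was made. A chi-square of the recovered reads was used only to check that the libraries are not 1 library deposited in duplicate.

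The genes named are the 50 highest rows, the 10 nearest the median, rows without reads and paralog pairs. From each list the highest, middle and lowest members are named, with all members of short lists. Of rows with a mean of at least 10 RPKM, those that differed most between the libraries are named too. Neighbours of named rows and a few familiar members of longer lists were added after their values were seen. The members and the 86 lists were chosen with earlier results of these data known. Alternatives covered low values, length, scaling, pseudocount and leaving out each library. Python 3.11.15, pandas 2.3.3, numpy 2.4.6, scipy 1.17.1 and matplotlib 3.10.9 were used.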

Additional observations from a re-analysis of the deposited data

How the results depend on the processing

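No paired analysis was possible because every result here comes from no test. The number of rows without a read in both libraries, 131, was 429 with at most 3 reads in each, 778 with a mean under 1 RPKM, 31 among rows matched to RefSeq, and 197 to 210 leaving out 1 library. The share of summed RPKM in the 10 highest rows, 17.6%, was 16.5% without CSE4 and HIS3, 11.2% over protein-coding rows, 11.7% in recovered reads, 19.2% over rows of at least 300 nt and 17.4% to 17.9% leaving out 1 library. The number of rows that equalled all others together, 212, was 355 over protein-coding rows, and 211 to 214 leaving out 1 library. The median, 28.9 RPKM, was 33.5 among rows of at least 1 RPKM, 33.5 over protein-coding rows, 29.7 scaled to the recovered reads, and 28.86 to 28.93 leaving out 1 library. In alternatives added after the data were seen, the share and the median were 18.6% and 28.6 RPKM without nested rows, and 17.1% and 29.1 RPKM per kilobase of exon. Rows that differed over 1.5-fold between the libraries, 87, were 131 with a pseudocount of 0.1 and 143 with no filter. The number of lists with a median in the top 10%, 25 of 86, stayed between 20 and 25. The members of a list in the top 10% moved by more than 1.5 times in 30 of 86 lists when reads replaced RPKM, in 9 when ranked among protein-coding rows, in 5 per kilobase of exon and in 5 among rows of at least 1 RPKM, where the proteasome core had 5 members there, not 10, and its cap 4, not 10. Without replicate 1 that number was 2, not 1, for trehalose and glycogen, 1, not 0, for the chaperonin and 0, not 6, for ribosomal RNAs. Without replicate 2 it was 12, not 7, for ribosome assembly. With 2 libraries no single level has more than 1 degree of freedom behind its SD.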
